A study of Homo sapiens with 9 samples.

Results

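The genes described here differed in level between cells with and without the HIF2α antagonist PT2385, while their mean level in HIF2α knockout cells stayed close to that of untreated cells. They are 78 of 10507 protein-coding genes with a mean of at least 50 counts, out of 58735 gene identifiers in all, and were chosen by their measured values. The ratio of mean CPM (counts per 1000000 counted reads of the library, with 0.5 CPM added) had to be at least 1.35 or at most 0.741 between PT2385-treated and untreated cells, with every treated replicate beyond every untreated replicate. The ratio between knockout and untreated cells had to lie between 0.870 and 1.15. Of the 78 genes, 40 were higher and 38 were lower upon PT2385 treatment. The choice used both contrasts, so the changes with PT2385 and the small changes in the knockout are given below as descriptions with no test.

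RNAseq was performed on 786-0 cells, a line from clear cell renal cell carcinoma that lacks functional VHL and HIF1α and expresses HIF2α constitutively. There were 3 groups of 3 libraries each, namely untreated wild-type (WT) cells, WT cells with 10 μM PT2385 for 48 h, and untreated HIF2α knockout (KO) cells. All were grown for 48 h in normoxia (21% O2) in DMEM with 5 mM glucose and 10% FBS. The labels do not say whether untreated cells received a vehicle, how the KO line was made or from how many clones, or whether replicates were separate cultures, so the spread between replicates may be technical in part.

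HIF2α is the oxygen-regulated subunit of a transcription factor that pairs with ARNT (HIF1β) and binds DNA at hypoxia response elements. Without VHL it escapes degradation and drives genes of angiogenesis, glucose uptake and growth in clear cell carcinoma. PT2385 occupies a pocket in the HIF2α protein and blocks the pairing with ARNT, whereas a knockout is meant to remove the protein itself. The sources used here give no HIF2α protein level for these KO cells.

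EPAS1, the gene of HIF2α (ENSG00000116016, chromosome 2, 46293667 to 46386697 on GRCh38), had 272, 261 and 231 CPM without treatment, 252, 249 and 219 upon PT2385 treatment and 20.3, 24.9 and 20.8 in KO cells. The KO libraries were far below both other groups, and the treated libraries overlapped the untreated ones. Total counts ran from 11881000 to 14730081 per library. The renal lineage factor PAX8 had between 569.7 and 671 CPM in every library and VIM between 4094 and 4872, whereas the untreated libraries were apart from both other groups in PAX2, MME, CDH6, KRT8 and KRT18, also on the renal epithelial list. PAX2 had 30.7 to 38.2 CPM in untreated, 22.1 to 27.2 in treated and 11.3 to 15.9 in KO cells, and MME had 9.04 to 16.3, 4.89 to 7.82 and 3.73 to 5.27. CDH6 had 91.9 to 104, 234 to 281 and 158 to 292, KRT8 376 to 428, 467 to 528 and 564 to 614, and KRT18 145 to 178, 206 to 262 and 267 to 321. CUBN had at most 2.65 in any library, and the summed level of the 8 renal markers was 5863 to 6252 CPM in untreated, 5828 to 6286 in treated and 5887 to 6168 in KO cells. PTPRC, CD3E, PECAM1, VWF and DCN, from the leukocyte, endothelial and fibroblast lists, had at most 1 count in any library. LYZ, CDH5 and KDR had at most 2 and CD14 at most 18. The other fibroblast markers reached 104 (COL1A1), 60 (LUM) and 37 counts (PDGFRB). PDGFRB had 2.27 to 2.52 CPM in untreated, 1.88 to 2.78 in treated and 0 to 0.155 in KO cells. LUM had 1.22 to 1.82, 2.17 to 2.78 and 2.10 to 4.16, and COL1A1 had 4.56 to 6.26, 6.15 to 7.82 and 1.86 to 3.05. The summed level of the 4 leukocyte markers was 0.0813 to 0.747 CPM in untreated, 0.150 to 0.698 in treated and 0.620 to 1.22 in KO cells, that of the 4 endothelial markers was at most 0.166 in all groups, and that of the 4 fibroblast markers was 8.71 to 10.0, 10.5 to 13.4 and 5.16 to 7.0. Their part in the results was not tested. In bulk RNA, fewer cells that express a gene and less of its RNA per cell cannot be told apart.

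Promoters are shown for the largest decrease (MEGF6), the transcription regulator with the largest increase (ID1), the glycolytic enzyme HK2 and the only divergent pair among the 78 (RNF166 and CTU2). Each stretch lies upstream of the start site and clear of annotated exons, is written 5′ to 3′ on the strand of the gene, and comes from RefSeq on GRCh38.p14. Capitals mark the hypoxia response element core, ACGTG or GCGTG on either strand.

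ID1, chr20:31605127-31605282, plus strand: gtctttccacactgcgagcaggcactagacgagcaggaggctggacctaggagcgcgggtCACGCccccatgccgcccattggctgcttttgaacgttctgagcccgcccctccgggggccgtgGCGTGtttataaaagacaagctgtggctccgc
HK2, chr2:74833988-74834126, plus strand: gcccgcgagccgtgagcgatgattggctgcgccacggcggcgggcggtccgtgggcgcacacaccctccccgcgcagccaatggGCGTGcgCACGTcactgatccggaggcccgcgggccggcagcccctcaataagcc
MEGF6, chr1:3611509-3611758, minus strand: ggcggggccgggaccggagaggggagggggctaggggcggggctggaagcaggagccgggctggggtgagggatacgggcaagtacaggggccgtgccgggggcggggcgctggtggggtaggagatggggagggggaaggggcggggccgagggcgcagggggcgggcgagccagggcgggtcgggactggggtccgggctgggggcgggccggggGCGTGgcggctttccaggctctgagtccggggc
RNF166 and CTU2, chr16:88706409-88706482, plus strand of CTU2: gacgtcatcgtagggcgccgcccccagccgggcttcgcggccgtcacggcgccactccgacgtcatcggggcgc

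ID1 and HK2 have 2 cores each in these stretches, MEGF6 has 1, and the 74 bases between RNF166 and CTU2 have 0. RefSeq promoter windows, from 250 bases before to 50 bases after the start, matched 60 of the 78 genes. Among the 18 others were ATXN3, BNIP3L, C3, CCDC91, CX3CL1, E2F5, FBXO43, GET4, KIF26B, LRP4, MROH6, PAG1, SYTL2 and USP43. In the whole windows, which reach beyond the stretches shown, ID1 and HK2 have 3 cores each, and MEGF6, RNF166 and CTU2 have 1 each. A core was found in 36 of the 60 windows (60.0%), which comprised 23 of 32 for the higher genes (71.9%) and 13 of 28 for the lower genes (46.4%). It was found in 65.2% of 8697 windows of protein-coding genes with at least 50 counts and in 48.4% of all 27305 RefSeq windows, so these 5 letters are common near any start site. The CCAAT box was found in 27 of the 60 windows (45.0%) and in 37.4% of the 8697. A match is a description of letters and not evidence of binding.

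Among the 10507 genes, 571 met the PT2385 conditions, 263 higher and 308 lower, and 78 of the 571 (13.7%) also met the KO limits. The share was 15.2% for the higher and 12.3% for the lower genes. The KO limits alone held 5699 of the 10507 genes (54.2%). Both ratios share the untreated libraries. The 78 genes had smaller changes with PT2385 than the 493 others that met its conditions. The median fold in either direction was 1.42 in the 78 genes and 1.55 in the 493 others, and a change of at least 2-fold was found in 5 of the 78 against 107 of the 493. The ratios compared here also chose the 2 sets, so nothing further is read from the difference. Treated and untreated replicates were free of overlap in 30.2% of the 10507 genes. The scatter of both ratios shows the chosen genes as 2 flat patches on either side of the cloud.

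**Figure D1:**
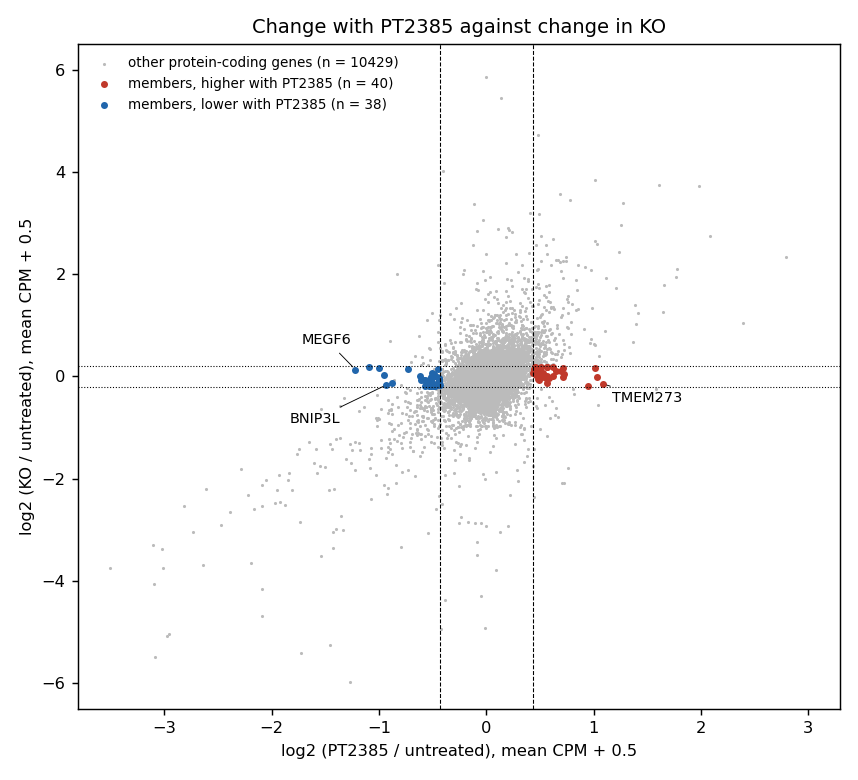
Each point is a protein-coding gene with at least 50 counts on average, placed by its log2 ratio of PT2385-treated to untreated cells (x axis) and of KO to untreated cells (y axis). The 40 higher genes (red) and 38 lower genes (blue) lie outside the dashed PT2385 limits and between the dotted KO limits by the way they were chosen, and the 10429 others are grey.

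By textbook role, 11 of the 78 genes encode transcription factors or their inhibitors, 11 act at the cell surface, in the matrix or in the cytoskeleton, and 11 are metabolic enzymes or transporters. The secretory pathway and organelles have 9 genes, immune and inflammatory signals 7, kinase signalling 5, and cell death and mitophagy 4, and 20 belong to none of these. The roles were assigned after the genes were known, and no test was made of them.

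Of the 11 transcription regulators 9 were higher upon PT2385 treatment, by 1.37 to 1.93-fold. ID1, which holds bHLH factors off DNA and answers to BMP signals (ENSG00000125968, chromosome 20, 31605283 to 31606515), had 71.7, 67.6 and 74.2 CPM without treatment, 146, 127 and 139 upon PT2385 treatment and 59.3, 68.0 and 60.2 in KO cells. The ratio to untreated cells was 1.93 with PT2385 and 0.879 in KO, and the KO libraries overlapped the untreated ones only through a single library, at 68.0 CPM.

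FOXD1, a forkhead factor of kidney stroma (ENSG00000251493, chromosome 5, 73444827 to 73448777), had 12.8, 15.6 and 19.0 CPM without treatment, 21.1, 24.4 and 29.5 upon PT2385 treatment and 16.4, 11.2 and 23.8 in KO cells. One KO library reached the treated range and another lay below every untreated library. HES6, a bHLH protein of the Hairy and Enhancer of split family, had ratios of 1.5 with PT2385 and 0.98 in KO. The cell cycle factor E2F5 and SOX4 were higher at ratios of 1.38 and 1.37. CREB3L2, a factor released from the endoplasmic reticulum membrane, had 577, 611 and 612 CPM without treatment, 795, 809 and 859.9 upon PT2385 treatment and 654, 670.3 and 709 in KO cells, and although its ratio of 1.13 was within the limits, all 3 KO libraries were above all 3 untreated ones. The zinc finger genes ZNF320 and ZNF570 were lower, at ratios of 0.740 and 0.735.

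ID3, a close relative of ID1 with the same mode of action, moved otherwise in KO. Its ratio was 1.42 with PT2385 and 0.492 in KO, with 93.9, 91.4 and 93.0 CPM in untreated, 135, 132 and 128 in treated and 40.6, 49.8 and 45.8 in KO cells. No library of ID3 overlapped those of another group, and the gene was outside the KO limits. ID2 had ratios of 0.810 and 0.854.

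Of the 7 immune and inflammatory genes 6 were lower and 1 was higher. The higher gene was CX3CL1, the chemokine fractalkine (ENSG00000006210, chromosome 16, 57372477 to 57385044), with 9.43, 11.0 and 10.8 CPM without treatment, 16.1, 21.0 and 27.3 upon PT2385 treatment and 10.1, 12.5 and 12.5 in KO cells. All treated libraries were above all others. The KO libraries overlapped the untreated ones only through a single library, at 10.1 CPM, and the others were above them. C3, the central complement component (ENSG00000125730, chromosome 19, 6677704 to 6730562), had 10.7, 9.76 and 14.8 CPM without treatment, 5.16, 3.91 and 6.63 upon PT2385 treatment and 11.2, 12.8 and 16.1 in KO cells.

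The ratio of C3 was 0.469 with PT2385 and 1.13 in KO, and its span overlaps that of GPR108, which lies on the same strand with 285% of its reads. CXCL8, the neutrophil chemokine IL-8 (ENSG00000169429, chromosome 4, 73740519 to 73743716), had 28.9, 28.2 and 25.1 CPM without treatment, 19.9, 14.8 and 18.7 upon PT2385 treatment and 23.3, 7.0 and 47.9 in KO cells. None of its 3 KO libraries was within the KO limits on its own, and the highest was 6.84 times the lowest. A low and a high library averaged to a KO mean within the limits.

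CSF2, which encodes GM-CSF, repeated this pattern of libraries, with 5.39, 4.39 and 4.31 CPM without treatment, 2.62, 2.93 and 3.84 upon PT2385 treatment and 4.81, 1.18 and 7.47 in KO cells. In both cytokines the second KO library was below every treated library and the third was above every untreated one. IL1RAP, the co-receptor of the IL-1 family, had ratios of 0.673 and 0.873. CARD10, a scaffold that leads from receptors to NF-κB (ENSG00000100065, chromosome 22, 37490362 to 37519542), was steadier, with 216, 210.1 and 202 CPM without treatment, 139, 154 and 142 upon PT2385 treatment and 203, 220.3 and 186 in KO cells. Its KO libraries overlapped the untreated ones and none came near the treated range. CARD6 had ratios of 0.726 and 0.994.

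Among the 5 genes of kinase signalling, MAP2K6, the kinase that activates p38 (ENSG00000108984, chromosome 17, 69414697 to 69553865), had 9.51, 7.64 and 6.97 CPM without treatment, 15.9, 13.8 and 11.2 upon PT2385 treatment and 7.45, 13.9 and 3.46 in KO cells. The KO mean was near that of untreated cells although one KO library lay in the treated range and another lay below all libraries of both other groups. MAP3K21, a mixed-lineage kinase (ENSG00000143674, chromosome 1, 233327724 to 233385148), had 129, 123 and 126 CPM without treatment, 73.5, 80.4 and 74.0 upon PT2385 treatment and 127, 168 and 123 in KO cells, with no overlap between treated libraries and any others. PAG1, a membrane adaptor that recruits the Src inhibitor CSK (ENSG00000076641, chromosome 8, 80967810 to 81112068), had 62.8, 60.8 and 62.0 CPM without treatment, 32.4, 35 and 32.7 upon PT2385 treatment and 58.4, 42.2 and 68.5 in KO cells. Its treated libraries were below all others, while 1 KO library fell well under the untreated range. GADD45B, a stress protein that acts upstream of p38 and JNK, had a ratio of 0.706 with PT2385 and RAP1GAP2, which turns off Rap1, one of 1.38.

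Of the 11 genes of the surface, matrix and cytoskeleton 8 were higher, by 1.37 to 1.64-fold. COL4A1, a chain of basement membrane collagen (ENSG00000187498, chromosome 13, 110148963 to 110307157), had 420.4, 403 and 405 CPM without treatment, 597, 603 and 557 upon PT2385 treatment and 405, 395 and 419 in KO cells. The KO libraries covered nearly the same range as the untreated ones, and the 95% interval of the KO ratio, 0.918 to 1.09, was among the narrowest of the 78. COL4A2, the partner chain read from the same promoter region on the opposite strand, had ratios of 1.21 with PT2385 and 1.18 in KO, and as the genes overlap, reads of one may be counted on the other if strand was ignored.

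PLXND1, a plexin receptor for semaphorins (ENSG00000004399, chromosome 3, 129555214 to 129606676), had 16, 15.3 and 17.0 CPM without treatment, 26.5, 24.7 and 28.8 upon PT2385 treatment and 13.6, 17.3 and 17.3 in KO cells. No KO library came near the treated range. KCNH1, a voltage-gated potassium channel, had ratios of 1.64 and 1.12. PRICKLE2, of the planar cell polarity pathway, had ratios of 1.47 and 0.977. The other higher genes were the agrin receptor LRP4, the kinesin KIF26B, the microtubule end binder MAPRE3 and the γ-tubulin TUBG2, with ratios between 1.37 and 1.41.

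The largest decrease of the 78 was that of MEGF6, a protein with many EGF-like repeats (ENSG00000162591, chromosome 1, 3487951 to 3611508), with 91.9, 95.8 and 129.6 CPM without treatment, 29.6, 39.5 and 66.2 upon PT2385 treatment and 116, 97.8 and 135 in KO cells. Its ratio was 0.429 with PT2385 and 1.10 in KO, and on the log2 scale its treated libraries spread more widely than the others, although the highest of them stayed below every untreated library. SCN9A, a voltage-gated sodium channel, had ratios of 0.705 and 0.920.

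Among the 11 metabolic enzymes and transporters 9 were higher. ALDH1A1, which makes retinoic acid from retinaldehyde (ENSG00000165092, chromosome 9, 72900671 to 73080442), had 62.3, 48.5 and 59.9 CPM without treatment, 115, 116 and 119 upon PT2385 treatment and 38.2, 73.0 and 57.1 in KO cells. The treated libraries were close together at about 2 times the untreated mean, and the KO libraries lay on both sides of the untreated range. ALDH9A1, another aldehyde dehydrogenase, had ratios of 1.36 and 1.08.

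The higher genes included 3 amino acid carriers. SLC43A2, a transporter of neutral amino acids (ENSG00000167703, chromosome 17, 1569268 to 1628886), had 5.89, 5.61 and 5.47 CPM without treatment, 9.66, 10.1 and 8.59 upon PT2385 treatment and 6.59, 6.17 and 5.70 in KO cells. The KO libraries reached slightly above the untreated range and stayed below the treated one. SLC25A15, the mitochondrial ornithine carrier, had ratios of 1.48 and 1.01, and SLC7A7, which exchanges cationic and neutral amino acids, of 1.41 and 1.03. The remaining higher genes of this role were ARSJ, CHAC2, AMACR and NME3, with ratios between 1.39 and 1.48.

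HK2, the hexokinase that starts glycolysis and whose promoter is shown above (ENSG00000159399, chromosome 2, 74834127 to 74893359), had 81.4, 87.8 and 82.9 CPM without treatment, 51.0, 63.9 and 71.0 upon PT2385 treatment and 70.5, 73.0 and 102 in KO cells. The treated libraries were below the untreated ones, and 1 KO library, at 70.5 CPM, was just under the highest treated library while another was above all untreated libraries. MMAB, a cobalamin adenosyltransferase, had ratios of 0.712 and 0.877. It overlaps MVK, mevalonate kinase, which lies on the opposite strand with 120% of the reads of MMAB and had ratios of 0.754 and 1.25.

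All 4 genes of cell death and mitophagy were lower. BNIP3L, also called NIX, a receptor that marks mitochondria for autophagy (ENSG00000104765, chromosome 8, 26383054 to 26505636), had 44.9, 40.8 and 47.4 CPM without treatment, 24.2, 24.1 and 20.9 upon PT2385 treatment and 39.9, 42.5 and 36.1 in KO cells. The ratio was 0.525 with PT2385 and 0.892 in KO. The KO libraries overlapped the untreated ones only through a single library, at 42.5 CPM, and the others were below them. BNIP3, its relative and a gene on the list of HIF targets used below, had ratios of 1.15 with PT2385 and 1.13 in KO.

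TP53BP2 (ASPP2) and PPP1R13L (iASPP) belong to one family of p53-binding proteins, in which the first favours and the second restrains p53-driven cell death. TP53BP2 (ENSG00000143514, chromosome 1, 223779893 to 223845954) had 260.1, 226 and 218 CPM without treatment, 161, 173 and 141 upon PT2385 treatment and 219.6, 232 and 214 in KO cells. PPP1R13L (ENSG00000104881, chromosome 19, 45379638 to 45406349) had 53.9, 57.0 and 60.1 CPM without treatment, 36.0, 41.7 and 41.3 upon PT2385 treatment and 56.9, 47.3 and 65.1 in KO cells. In both the treated libraries were below all others and the KO libraries overlapped the untreated ones. PPP1R13B (ASPP1), the other family member, had ratios of 1.08 and 1.10. BCL2L15, of the BCL2 family, had ratios of 0.671 and 0.956.

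Of the 9 genes of the secretory pathway and organelles 4 were higher and 5 were lower. TXNDC5, a disulphide isomerase, FOXRED2 and WFS1 of the endoplasmic reticulum and the protease CTSC were higher, by 1.35 to 1.45-fold. SYTL2, an effector of Rab27 in vesicle transport (ENSG00000137501, chromosome 11, 85694224 to 85811159), had 14.6, 16.1 and 19.7 CPM without treatment, 8.11, 10.1 and 7.19 upon PT2385 treatment and 14.4, 18.2 and 18.8 in KO cells. Its treated libraries were below all others and the KO libraries overlapped the untreated ones. CCDC91, which works with GGA adaptors at the Golgi, had ratios of 0.651 and 1.01. DNAJB12, a chaperone of the endoplasmic reticulum, had ratios of 0.702 and 0.874, the latter close to the lower KO limit. STXBP6 and GET4 were lower at 0.707 and 0.735.

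Among the 20 genes of other or little known function was TMEM273, a transmembrane protein and the largest increase of the 78 (ENSG00000204161, chromosome 10, 49154725 to 49188585), with 10.7, 10.6 and 11.2 CPM without treatment, 24.5, 20.7 and 25.7 upon PT2385 treatment and 9.31, 10.0 and 9.78 in KO cells. Its treated libraries were about 2 times the untreated ones, while the KO libraries were close together just below them. MROH6 had ratios of 1.54 and 1.01, and OSGIN1, an oxidative stress gene, of 1.48 and 1.14. RRP9, of the U3 particle that processes ribosomal RNA, had ratios of 1.37 and 1.11. RNF166, a ubiquitin ligase, and CTU2, which thiolates transfer RNA, are read in opposite directions from the 74 bases shown above and had the same ratio of 1.41 with PT2385. In KO the ratios were 1.12 and 0.953. Among the lower genes ANKRD12 had ratios of 0.689 and 0.879, and ANKRD36C had 0.684 and 0.924. ASF1A, a histone chaperone, was higher at 1.36. The 11 other lower genes, with ratios between 0.695 and 0.737, were ALS2CL, ANKS1B, ATXN3, CCDC85C, FAM228B, FBXO43, GRAMD2B, LZTFL1, SPDYA, TMEM170B and USP43.

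**Figure D2:**
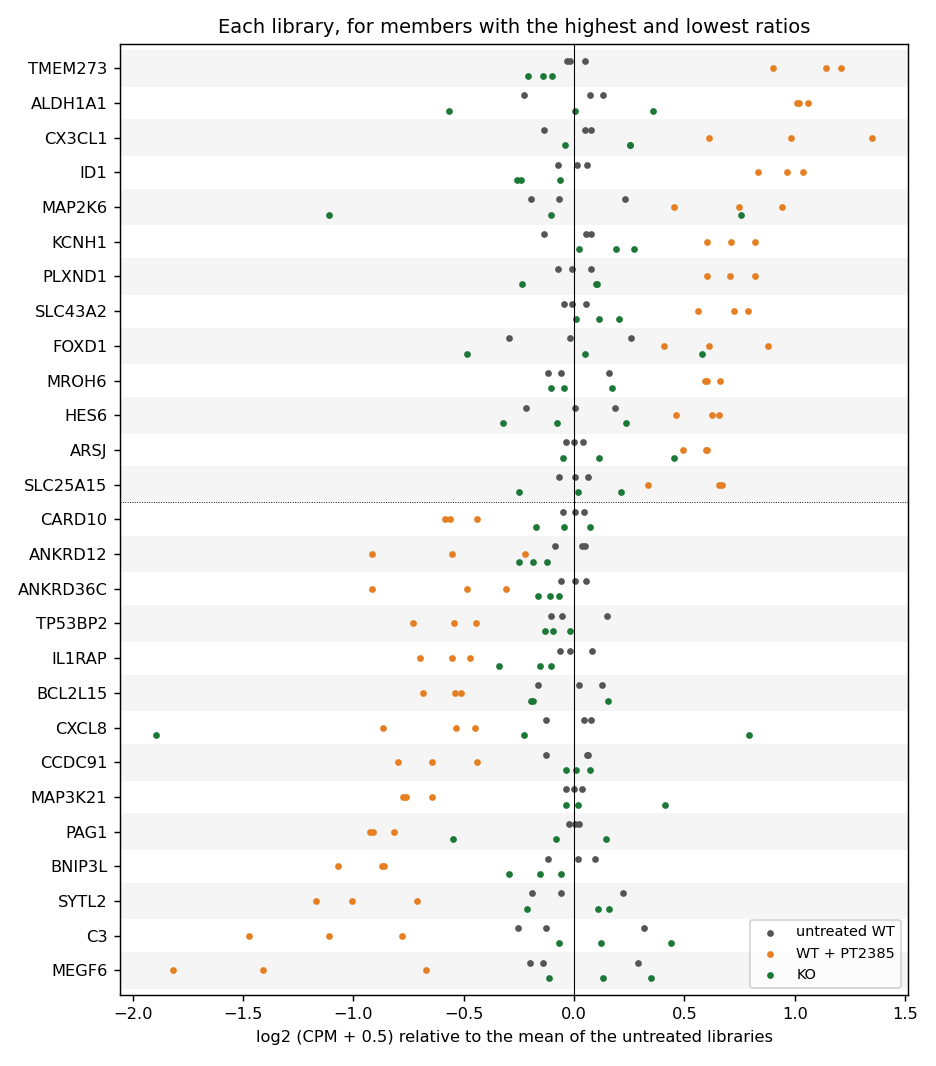
For 27 of the genes with the 15 highest and 15 lowest PT2385 ratios, each point is a library, given as log2 of CPM + 0.5 relative to the mean of the untreated libraries (grey untreated, orange PT2385, green KO). Treated libraries are apart from untreated ones in all 27 genes, as the choice demanded, and the KO libraries of CXCL8, MAP2K6 and FOXD1 are spread the most.

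The limits cut through a continuous range of values. Just inside the upper PT2385 limit were CTSC (ratio 1.35), ALDH9A1 (1.36) and ASF1A (1.36), and just outside were PHETA1 (1.349), ADORA1 (1.348) and MYO18A (1.347). On the lower side ZNF320 (0.740), HK2 (0.739) and FBXO43 (0.737) were inside, and EBP (0.742), CERT1 (0.747) and ELOVL6 (0.748) were outside. At the upper KO limit ARSJ (1.14) and OSGIN1 (1.14) were among those kept, and TIMM23B-AGAP6 (1.156), ABCB9 (1.157) and SLC2A3 (1.16) were not. At the lower KO limit IL1RAP (0.873), ATXN3 (0.874) and DNAJB12 (0.874) were kept, and GBE1 (0.867), ANKRD36B (0.865) and TBL1XR1 (0.854) were not.

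Of the 78 genes, 60 were differentially expressed with PT2385 (edgeR's quasi-likelihood test, adjusted p under 0.05), 32 of the higher and 28 of the lower ones. Over all 15089 tested genes the share was 7.7%, with 3.08% higher and 4.62% lower, and nothing is read from the difference because the genes were selected on this contrast. With the replicate number as a block, which pairs treated with untreated libraries, the count over all genes went from 1162 to 2305 and that among the 78 from 60 to 72.

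A ratio near 1 in KO does not show that a gene was unmoved. The KO ratio was on the PT2385 side of 1 in 58 of the 78 genes. The same share over all 10507 genes was not counted, so nothing is read from this number. The median KO ratio was 1.05 in the higher and 0.941 in the lower genes, and both ratios share the untreated libraries. Besides CREB3L2, all KO libraries were beyond all untreated ones in the direction of PT2385 in RNF166, IL1RAP, DNAJB12, ANKRD12 and ANKRD36C. In TMEM273 they were so in the opposite direction. How often KO and untreated libraries were free of overlap over all 10507 genes was not counted, so nothing is read from these cases. In KO 1 of the 78 genes was differentially expressed, CREB3L2, where the share over all 15192 tested genes was 30.1%, and again nothing is read from it because of the choice. The 95% interval of the KO change lay within 1.35-fold on both sides in 45 genes. In 27 it reached 1.35-fold in the direction of PT2385, and in 17 it included the gene's own PT2385 change. The interval of the KO ratio was 0.486 to 1.91 for CXCL8, 0.491 to 1.89 for CSF2 and 0.591 to 1.82 for MAP2K6, which allows changes as large as those with PT2385, whereas it was 0.787 to 1.02 for BNIP3L and 0.754 to 1.08 for TMEM273.

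**Figure D3:**
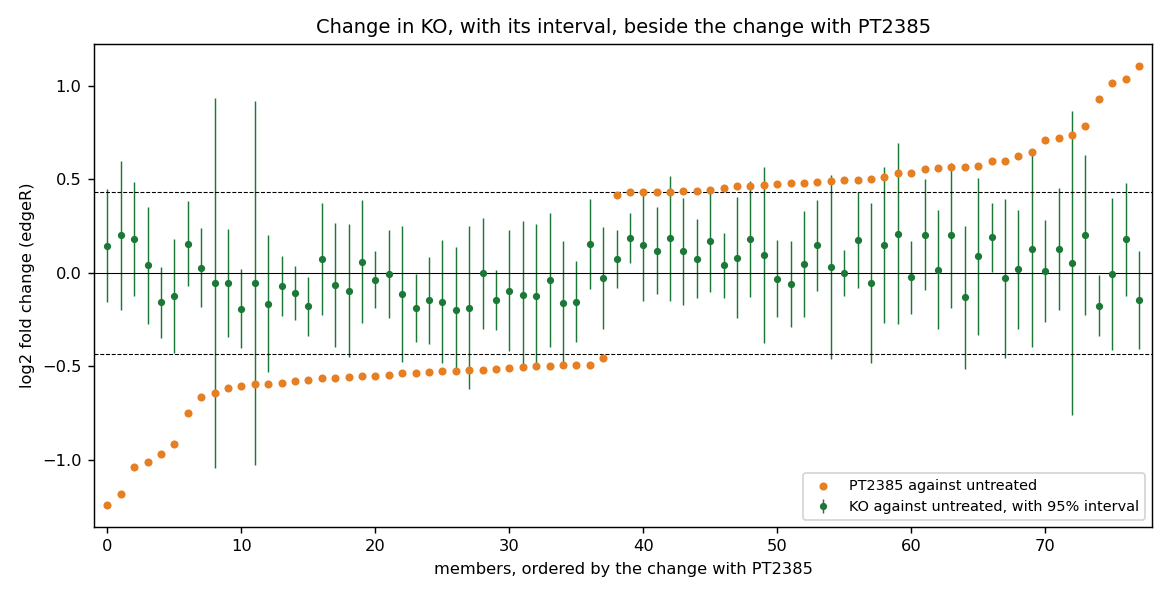
The 78 genes are ordered along the x axis by their log2 fold change with PT2385 (orange), and the green points and bars give their log2 fold change in KO with its 95% interval (edgeR, 3 against 3 libraries). Dashed lines mark 1.35-fold, which the KO bars of 45 genes do not reach on either side.

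Single KO libraries departed from the mean more often than the ratios show. All 3 were within the KO limits in 19 genes, 2 in 40, 1 in 18, and none in CXCL8. At least 1 KO library lay in or beyond the treated range in 21 genes, 20 with 1 library and FAM228B with 2. The highest KO library was at least 2 times the lowest in MAP2K6, FOXD1, CSF2 and CXCL8, which is 5.13% of the 78 against 1.39% of the 10507. The median coefficient of variation in KO was 12.6% in the 78 genes and 7.46% in the 10507, where the median of the mean counts was 257 and 537.

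Differences between replicate numbers within groups were not what the genes were chosen for, although the demand that treated and untreated replicates do not overlap limits them. The replicate number had an effect in 6 of the 78 genes (7.69%) and in 2.61% of all 15655 tested genes (edgeR, adjusted p under 0.05). They were PRICKLE2, KIF26B, MMAB, SCN9A, LZTFL1 and MEGF6. This edgeR F test covers any difference among the replicate numbers, over all groups together. Its adjusted p was 0.0236 for MEGF6 and 0.0267 for SCN9A. MEGF6 was higher in the third than in the first library of every group, by 0.49 on the log2 scale in untreated, 1.15 in treated and 0.22 in KO cells. SCN9A was lower there in every group, with log2 differences of -0.34, -0.81 and -0.64. These differences within single groups were not tested. The count among the 78 ranged from 0 without the first untreated library to 15 without the second KO library. In the former case 17 of the 78 genes had an unadjusted p under 0.05 (edgeR), for which the share over all tested genes was not counted. DESeq2 on all libraries called 7 of the 78 and 442 of all 15655 tested genes.

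Of 23 lists of pathway genes with 477 genes in all, 7 lists held 1 of the 78 genes each. HK2 is on the glycolysis list, of whose 19 tested genes 7 fell and 1 rose with PT2385 and 5 fell and 2 rose in KO (edgeR, adjusted p under 0.05). ID1 is on the list of TGF-β and BMP targets, where 5 of 12 rose and 1 fell with PT2385 and 2 rose and 8 fell in KO.

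CXCL8 is on the list of NF-κB targets and cytokines, where 3 of 15 fell and 1 rose with PT2385 and 3 fell and 2 rose in KO. COL4A1 is on that of matrix and adhesion, where 13 of 48 rose and 3 fell with PT2385 (20 and 5 with the replicate block) and 22 rose and 11 fell in KO. OSGIN1 is on that of NRF2 targets, where 6 of 17 rose with PT2385 and 7 of 18 in KO, and RRP9 on that of ribosome biogenesis, where 1 of 18 rose with PT2385 (7 with the replicate block) and 2 rose in KO. The median log2 fold change over all tested genes was 0.00099 with PT2385 and 0.0038 in KO.

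The list of 30 HIF targets held none of the 78 genes. Neither BNIP3L nor HK2 was placed on it, so their absence reflects how the list was drawn up. Of the 25 tested, 17 were differentially expressed with PT2385, all of them lower, and 17 were lower and 1 was higher in KO, with medians of -0.75 and -0.80 on the log2 scale. The largest changes with PT2385 were those of NDRG1 (ratio 0.0880 with PT2385 and 0.0749 in KO), EGLN3 (0.118 and 0.0223), ADM (0.151 and 0.122) and SLC2A1 (0.206 and 0.286). The list of sterol and fatty acid synthesis also held none of the 78, but EBP and ELOVL6, just outside the lower PT2385 limit, are on it. Of its 28 tested genes 1 fell with PT2385 (21 with the replicate block) and 1 rose in KO, and the median log2 fold change was -0.38 with PT2385 and 0.04 in KO.

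The 78 genes lay on 20 chromosomes, with 0 on X, where 347 of the 10507 genes lie. Base composition, which was not used to choose the genes, had different medians in the higher and lower ones. The median GC content of the longest transcript was 54.5% in the 40 higher and 44.1% in the 38 lower genes, against 47.0% in the 10507. In the 493 genes outside the KO limits it was 50.7% for the higher and 50.1% for the lower ones. Over all 10507 genes the median log2 PT2385 ratio went from -0.036 in the fifth with the lowest GC content to 0.073 in the fifth with the highest, so a small shift with GC content ran through the whole table, and its part in the membership was not tested.

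Another gene with counts overlapped the span of 42 of the 78 genes, and in 13 of them the overlapping genes held at least as many reads as the member. Among these were SPDYA, ASF1A, GET4, E2F5, ANKS1B, MMAB, COL4A1, NME3, OSGIN1, CTU2, C3 and ZNF570. In SPDYA, GET4, OSGIN1 and C3 the overlapping gene with the most reads lies on the same strand, where strand does not separate reads. For the rest, the sources used here do not say whether counting used strand. The levels of the 13 genes are therefore less certain than those of the others.

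Whether a gene belonged to the 78 depended on single libraries. Without the first treated library 143 genes met the conditions, 67 of them among the 78, and without any other single library 65 to 97 did. Only 16 genes met them whichever of the 9 libraries was left out. The 10 higher ones were COL4A1, CTU2, HES6, MROH6, PLXND1, PRICKLE2, SLC25A15, SLC43A2, TMEM273 and TXNDC5, and the 6 lower ones were BCL2L15, CARD10, CCDC91, PPP1R13L, SYTL2 and TP53BP2. ATXN3 met them in 2 of the 9 cases and TMEM170B and ZNF320 in 3, the fewest of all.

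**Figure D4:**
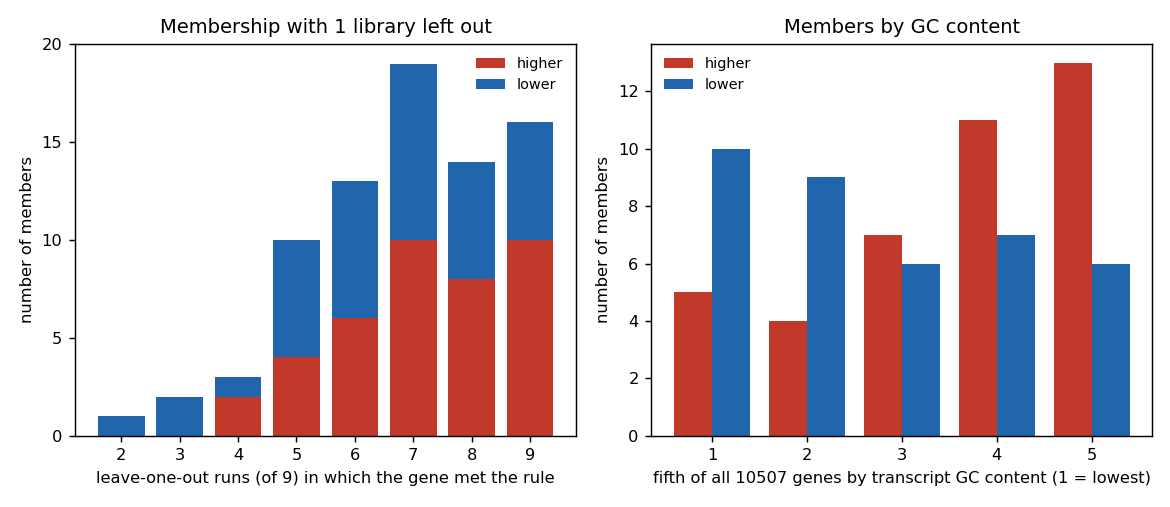
Left, the number of the 78 genes that met the conditions in 2 to 9 of the 9 analyses that each left out 1 library. Right, the number of higher (red) and lower (blue) genes in 5 classes of equal size into which the 10507 genes were cut by GC content of the longest transcript, where the higher genes go from 5 to 13 and the lower genes go from 10 to 6.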

How the data were processed

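Total RNA of 9 libraries was sequenced, 3 each of untreated 786-0 WT cells, WT cells with 10 μM PT2385 and HIF2α KO cells. The authors trimmed reads with cutadapt, aligned them with STAR to the human genome (hg38 in their processing notes, GRCh38) and counted reads per gene with featureCounts. The deposited values are these counts for 58735 genes, without normalization, and totalled 11881000 to 14730081 per library. Versions, annotation release and strand setting are not given in the sources used here. Identifiers were matched to GENCODE v44 (58207 matched, 19831 protein coding).

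For the choice of genes, counts were divided by the library total, averaged per group and compared after adding 0.5 CPM. The genes and the pathway lists were chosen with earlier results of these data known. Treated and KO cells were each fitted against untreated cells in separate models (R 4.3.3, edgeR 4.0.16, TMM scaling, filterByExpr with a minimum of 10 counts, quasi-likelihood F test, Benjamini-Hochberg adjustment over all tested genes, 95% intervals). The replicate number was tested over all 9 libraries with the group in the model. The steps were tested on simulated data. With 3 against 3 libraries an exact two-sided permutation test of a single gene cannot go below p = 0.1. Intervals and replicate spread cover these libraries only.

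Named genes were the 15 highest and 15 lowest PT2385 ratios among the 78, those on a pathway list, the 3 nearest to each limit on either side, EPAS1, and up to 4 HIF targets. Others were named after their values were seen, to account for all members by role or as relatives and overlapping genes. Results for 4 of the 78 genes are not reported by name here. Alternatives were DESeq2 1.42.0 and its size factors, RLE and TMM scaling, all 9 libraries in 1 model, pairs of groups, no filter, other pseudocounts and count minimums, a replicate block and leaving out each library. Same-numbered libraries of untreated and treated cells deviated together from their group means (correlations across genes of 0.423, 0.126 and 0.397), so the numbers were taken to pair these groups. The main models of treated or KO against untreated cells leave this pairing out, and the replicate block that includes it is given as an alternative.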

Additional observations from a re-analysis of the deposited data

How the results depend on the processing

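The number of genes that met the conditions was 79 with TMM scaling and 80 with DESeq2 size factors, and 75 of the 78 were kept by each. With the replicate block it was 86, of which 73 were among the 78. It became 44 with a pseudocount of 5 CPM, 45 with a mean count of at least 200 and 124 with no minimum count. With each library left out in turn it ranged from 65 to 143, the latter without the first treated library. In every alternative except the higher minimum count, 12 genes met the conditions.

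With PT2385 the differentially expressed genes were 2305 with the replicate block against 1162, and 574 to 1451 with a library left out (574 without the second treated library, and 654, 581 and 728 without the first, the second and the third untreated library). Among the 78 the range was 37 to 61, with 39 without the second treated and 37 without the second untreated library. In KO the count among the 78 was 2 without the filter, 4 with the replicate block and 0 to 5 with a library left out. Over all tested genes it was 5216 of 28802 without the filter and 3344 to 5094 with a library left out. Nothing is read from the difference because the genes were selected on this contrast. Among the 78 it was 0 without any one of the untreated libraries, where 0, 4 and 3 had an unadjusted p under 0.05 (edgeR). For the unadjusted p the share over all tested genes was not counted. The count among the 78 was 2 without the first or second KO library and 5 without the third, and DESeq2 on all libraries called 1. Same-numbered untreated and KO libraries had correlations of 0.275, 0.0265 and 0.434, and the first untreated and second KO library had 0.276. A pairing by number was therefore less clear here than for untreated and treated libraries. The block changed the KO count over all genes from 4566 to 5501.

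For the replicate number, the count over all genes was 1552 of 30101 without the filter. It was 33 of 15402 from treated and KO libraries alone and 12 of 15192 from untreated and KO libraries alone. With a library left out it was 65 to 900, of 15963 to 16079 tested genes. It was 900 without the second KO library, 65 without the first treated one and 71 without the first untreated one. Without each other library whose omission moved it so far it was 126 to 269. Among the 78 the count was 17 without the filter and 1 from treated and KO libraries alone. From untreated and KO libraries alone it was 0 (edgeR, with 16 at an unadjusted p under 0.05, a share not counted over all genes). With a library left out the count among the 78 was 0 to 15. That range held 1 without the third KO or the first treated library and 2 without the third treated or the third untreated library. For the single genes, the PT2385 ratio of all 78 kept its direction in 780 alternatives. The choice fixed this beforehand, since it demanded treated and untreated replicates without overlap, so it is no sign of stability. With a pseudocount of 5 CPM the PT2385 ratio of 26 genes moved by more than 1 SD between replicates. The KO ratio changed sign in 71 of 780 alternatives, in 39 genes, and 67 of the 71 left out a library. With a library left out its log2 value ran from -0.52 to 0.39 in MAP2K6, from -0.83 to 0.37 in CXCL8, from -0.57 to 0.35 in CSF2, from -0.19 to 0.34 in FOXD1 and from -0.25 to 0.19 in ALDH1A1, all within 1 SD between replicates. The cause of these differences was not tested, nor was the part of depth in them. The median of the mean counts was 257 in the 78 genes.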
